A study of Homo sapiens with 4 samples.

Results

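To follow how genes of the splicing machinery differed between invading melanoma cells and the cells they left behind, the SR and hnRNP splicing factor genes were taken from bulk RNAseq counts of spheroid cores and invasion zones. The genes were chosen by name: 12 SRSF genes, TRA2A and TRA2B, 20 HNRNP genes, PTBP1 to PTBP3 and 6 genes for kinases that phosphorylate SR proteins (CLK1 to CLK4, SRPK1 and SRPK2). This gave 43 of the 56304 genes in the table, and 41 of them were among the 15529 genes that passed the filter on low counts. HNRNPCL1 (1 count over both core libraries and 2 over both invasion zone libraries) and HNRNPCL2 (3 and 3 counts) were not tested. The naming rule leaves out HNRNPAB, HNRNPDL and HNRNPLL, which were counted with the other splicing regulators.

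All 4 libraries came from MV3, an established human melanoma line described as highly metastatic, carrying the nuclear reporter H2B-GFP. Spheroids of 50000 cells were embedded in collagen I and dissected on day 2, with a 1 mm punch for the core and a 3 mm punch for its corresponding invasion zone. Each zone had 2 libraries, numbered 1 and 2. As a model, the groups hold 1 cell line and 1 time point, and the zones were enriched by punching rather than purified. No source used here says that the replicates were separate cultures. The p-values therefore measure only the spread between these libraries, in part estimated over all genes together, and this spread may be technical.

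SR proteins are RNA-binding factors with a domain rich in arginine and serine that mostly bind exonic enhancers and favour the inclusion of exons. The hnRNP proteins coat nascent transcripts and often, but not always, oppose SR proteins at splice sites, and the polypyrimidine tract binding (PTB) proteins are repressors of this kind. SRPK kinases phosphorylate SR proteins in the cytoplasm before nuclear import, and CLK kinases phosphorylate them in the nucleus. Many of these genes carry a poison exon or a retained intron through which the protein limits its own productive mRNA, and counts per gene add up productive and unproductive isoforms.

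Depth was 36363358 and 14983135 counts in core replicates 1 and 2 and 37591782 and 11789243 counts in the invasion zone replicates, so both replicate 2 libraries were the shallower ones. Mitochondrial genes took 1.06% to 1.72% of the counts, with overlapping zones. Of 10 markers of melanocytes and melanoma, VIM, MCAM and CSPG4 were well expressed in each library. MITF was between 1.71 and 3.37 normalized CPM (counts scaled to a common library size after TMM normalization). MLANA (0.597 to 0.978 CPM) and PMEL (0.267 to 1.01 CPM) were low, and DCT and S100B had 0 to 3 counts per library. The defining genes SOX10 and TYR had 0 counts in all 4 libraries. Of 6 markers of leukocytes, epithelium and endothelium, PTPRC, KRT5, KRT14, EPCAM and CDH5 had 0 to 7 counts per library. PECAM1 was the exception, with 18.1 and 7.43 CPM in the core against 5.23 and 0.926 CPM in the invasion zone, and carried nearly the whole summed level of these markers (18.6 and 7.83 CPM in the core against 5.60 and 1.01 CPM in the invasion zone).

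Most splicing factor genes were more abundant in the invasion zone. Together they took 0.583% and 0.714% of all counts in core replicates 1 and 2, and 0.794% and 0.924% in invasion zone replicates 1 and 2. Both invasion zone libraries were above both core libraries in this sum. The log2 difference between invasion zone and core was positive in both replicates for 32 of the 41 genes tested and negative in both for 8, whereas 39.8% of all genes tested were positive in both and 40.9% negative in both. HNRNPUL1 alone changed sign between the replicates. The median log2 fold change of the 41 genes was 0.40, against -0.01 for all genes tested. Fewer cells of a type and less RNA per cell cannot be told apart in such bulk libraries.

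Whether single genes passed a test depended on how the replicate number was treated. In edgeR's quasi-likelihood test without a replicate term, with Benjamini-Hochberg adjustment over all 15529 genes, 0 of 41 splicing factor genes were called higher and 0 lower (adjusted p from 0.128 to 0.896), as were 0.0% of all genes in either direction. At an unadjusted p under 0.05, 15 were higher, against a background of 11.9% of all genes, and 2 were lower, against 12.4%. Left-out libraries moved these calls. Leaving out core replicate 2 gave 5 genes called higher (3.92% of all genes tested in that fit). Leaving out invasion zone replicate 1 gave 8 (6.0%), while 0 were called without core replicate 1 or invasion zone replicate 2. Each of these fits leaves a zone with a single library, so these counts are a description and not a result. When the same edgeR test included the replicate number as a block, 25 of 41 genes (61.0%) rose and 5 (12.2%) fell in the invasion zone, while 19.4% of all genes were called higher and 19.4% lower. One of the 5, SRSF12, reached the filter on low counts through its core libraries only, so it had to be lower in the invasion zone and its call supports nothing. A 2-fold minimum in addition left 0 genes higher (background 3.41%) and SRSF12 lower (background 7.06%), so that the other 29 differences were below 2-fold. DESeq2 without the block called 5 genes higher (SRSF2, SRSF3, SRSF7, TRA2B and PTBP1), against 5.22% of all genes. It called 0 lower, against 5.64%. At an unadjusted p under 0.05 in DESeq2, 16 were higher and 2 lower, against 1778 and 1770 of all 15529 genes. With the block DESeq2 called 19 genes higher (background 14.1%) and 3 lower (background 12.5%). CLK1, PTBP2, SRSF9, HNRNPA3, HNRNPC, HNRNPF and HNRNPK were not called there, and SRSF12 got no adjusted p.

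For 22 of the 41 genes the 2 invasion zone libraries exceeded both core libraries, against 28.1% of all genes tested, and for 6 they were below both, against 30.3%. Of the 25 genes that rose with the block, 21 had zones that did not overlap, and the remaining 4 (SRSF9, HNRNPC, HNRNPK and HNRNPU) overlapped because core replicate 2 was above invasion zone replicate 1. All 5 genes that fell did so without overlap, but SRSF12 reached the filter through its core libraries only. It is among these 5 and among the 6 below both core libraries, and its place there supports nothing. Replicate 2 lay above replicate 1 in both zones for 27 of the 41 genes, with a median log2 difference between replicates of 0.23 in the core and 0.16 in the invasion zone. For all genes tested these medians were 0.00 and -0.03. In 24 of the 41 genes, SRSF12 among them, the zone difference of each replicate exceeded the difference between replicates within either zone. The share of all genes tested was 35.4%.

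**Figure D1:**
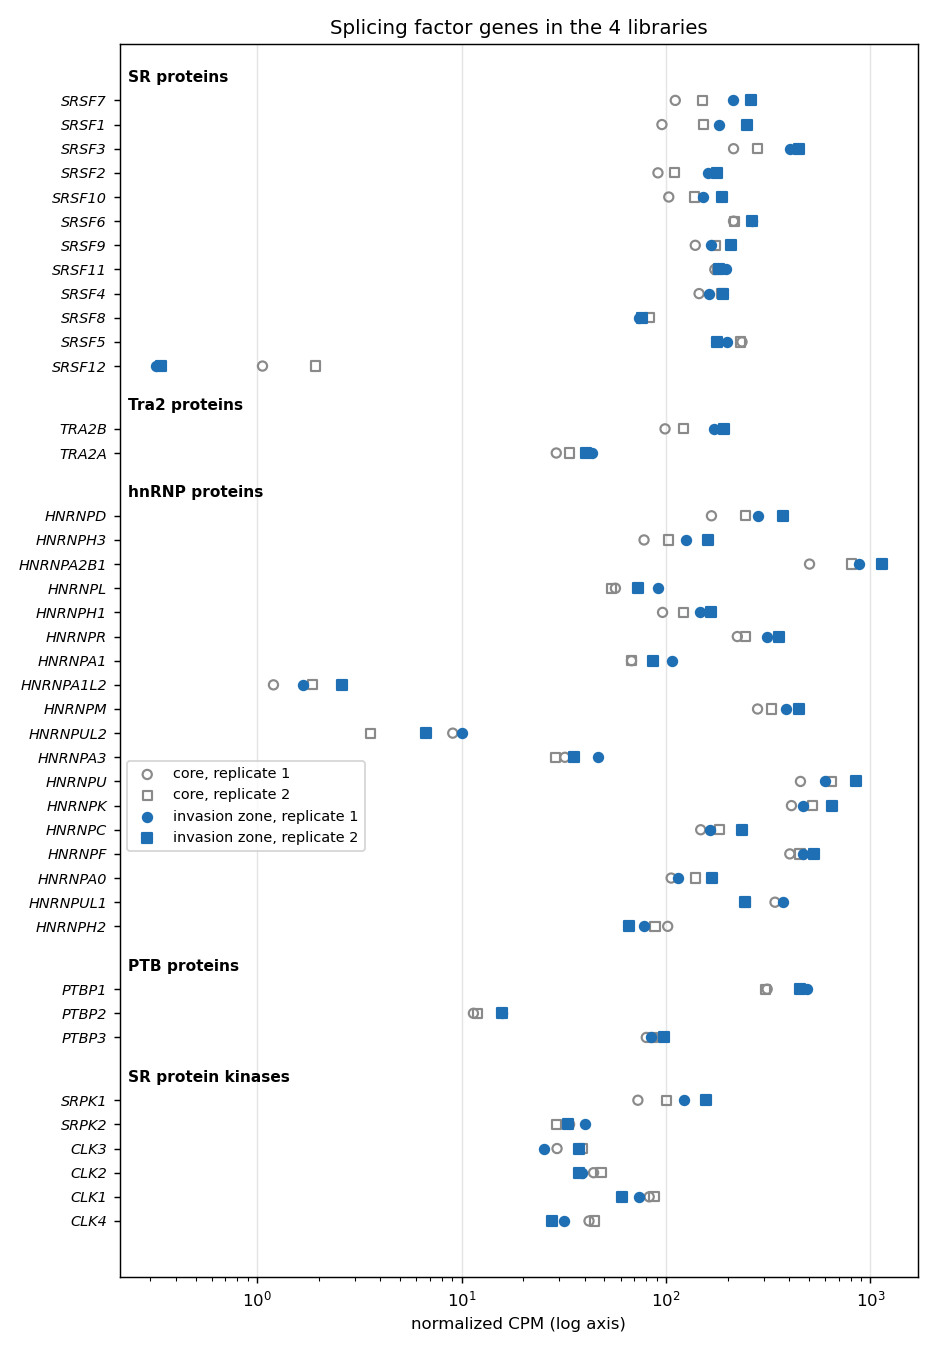
Normalized CPM (log axis) of the 41 splicing factor genes tested in each of the 4 libraries, grouped by role, with open grey symbols for the core, filled blue symbols for the invasion zone, circles for replicate 1 and squares for replicate 2. For 22 genes both blue symbols lie to the right of both grey ones, for 6 (SRSF5, SRSF12, HNRNPH2 and 3 CLK genes) both lie to the left, and 13 overlap. SRSF12 reached the filter on low counts through the core only.

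Among the 12 SR protein genes, 7 rose (58.3%) and 2 fell (16.7%) with the block, against 19.4% of all genes in each direction. The share that fell is near that background and includes SRSF12, which reached the filter through the core only. The median log2 fold change of the 12 genes without the block was 0.28. SRSF7, a shuttling SR protein with a zinc knuckle that also takes part in mRNA export (chr2:38743599-38751494, GRCh38), had 111 and 151 CPM in core replicates 1 and 2 and 212 and 261 CPM in invasion zone replicates 1 and 2. Both invasion zone libraries were above both core libraries, by a log2 fold change of 0.86 ± 0.08 (SE), or 1.82-fold (edgeR with the block, adjusted p = 0.000117). Without the block its adjusted p was 0.135, and over 16 alternatives it ran from 3.07e-11 to 0.317.

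SRSF3, the smallest member of the family and an export adaptor like SRSF7 (chr6:36594353-36605600), had 214 and 280.2 CPM in the core against 403 and 448 CPM in the invasion zone, without overlap. SRSF1, the founding SR protein and a known oncogene product, had 95.5 and 152 CPM in the core against 181 and 250.035 CPM in the invasion zone, also without overlap but with a wide spread between replicates. SRSF2, which binds exonic enhancers and is recurrently mutated in myeloid neoplasms, had 91.3 and 110 CPM in the core against 161 and 178 CPM in the invasion zone. These 3 genes rose by a log2 fold change of 0.80 ± 0.08, 0.82 ± 0.08 and 0.76 ± 0.08 with the block (edgeR adjusted p = 0.000191, 0.000174 and 0.000204). Without it their adjusted p was 0.133, 0.174 and 0.128.

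SRSF10, which acts as a repressor when dephosphorylated, had 103 and 138 CPM in the core against 152 and 189 CPM in the invasion zone, a rise of 0.50 ± 0.08 on the log2 scale with the block (edgeR adjusted p = 0.00122, 0.217 without). SRSF6 rose by 0.30 ± 0.07 with the block (edgeR adjusted p = 0.0109, 0.229 without). Its libraries of a zone nearly coincided at 214 and 216 CPM in the core against 264 and 265 CPM in the invasion zone. SRSF9 rose by 0.25 ± 0.07 with the block (edgeR adjusted p = 0.0255, 0.460 without). Its zones overlapped, at 139 and 174 CPM in the core against 166 and 208 CPM in the invasion zone. SRSF4, SRSF8 and SRSF11 did not pass in either fit, with log2 fold changes between -0.08 and 0.11.

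SRSF5, an SR protein known for its induction by insulin in liver cells (chr14:69726900-69772005), moved the other way. It had 235 and 231 CPM in the core against 199 and 177 CPM in the invasion zone, so that both invasion zone libraries were below both core libraries. With the block it fell by 0.31 ± 0.08 on the log2 scale (edgeR adjusted p = 0.0122, 0.242 without the block, 0.000971 to 0.816 over 16 alternatives). SRSF12, a low-abundance relative of SRSF10 (chr6:89095959-89118071), had 38 and 29 counts in the core libraries and 12 and 4 counts in the invasion zone libraries. Its normalized level was 1.06 and 1.92 CPM in the core against 0.320 and 0.337 CPM in the invasion zone. These invasion zone levels are below the cutoff of the filter, 0.393 CPM, so the difference is a description without a test. On the summed counts the core exceeded the invasion zone 4.03-fold. This ratio describes these libraries only, since SRSF12 passed the filter through its core counts.

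TRA2B and TRA2A, SR-like activators that bind purine-rich exonic enhancers and often act together, both rose with the block. TRA2B (chr3:185914558-185938103) had 98.9 and 122 CPM in the core against 173 and 193 CPM in the invasion zone, which gave a log2 fold change of 0.73 ± 0.08 (edgeR adjusted p = 0.000238, 0.131 without the block). TRA2A had 29.1 and 33.7 CPM in the core against 43.6 and 40.8 CPM in the invasion zone, which gave a log2 fold change of 0.44 ± 0.12 (edgeR adjusted p = 0.0153, 0.184 without the block). Neither gene had overlapping zones.

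The promoters of 3 genes that rose together and of SRSF5, which fell, are shown to set the sequences beside the values, as the 250 bases before the RefSeq gene start on GRCh38.p14, each read 5′ to 3′ on the gene's own strand. Capitals mark any match, on either strand, to CCAAT (the NF-Y motif), TATAAA (the TATA box), CCGGAAGT (an ETS motif), or TTTCCCGC or TTTGGCGC (E2F motifs).
SRSF3 promoter (chr6:36594112-36594361, plus strand): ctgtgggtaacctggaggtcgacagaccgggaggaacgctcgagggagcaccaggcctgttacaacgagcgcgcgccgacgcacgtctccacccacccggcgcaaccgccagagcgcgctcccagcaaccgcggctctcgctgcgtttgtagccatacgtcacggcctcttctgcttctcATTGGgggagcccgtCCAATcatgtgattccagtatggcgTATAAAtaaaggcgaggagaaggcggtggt
SRSF7 promoter (chr2:38751495-38751744, minus strand): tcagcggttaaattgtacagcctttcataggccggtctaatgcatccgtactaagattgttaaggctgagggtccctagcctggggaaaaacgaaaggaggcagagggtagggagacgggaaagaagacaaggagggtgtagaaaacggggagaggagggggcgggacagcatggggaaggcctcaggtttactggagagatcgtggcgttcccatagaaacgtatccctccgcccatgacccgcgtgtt
TRA2B promoter (chr3:185938015-185938264, minus strand): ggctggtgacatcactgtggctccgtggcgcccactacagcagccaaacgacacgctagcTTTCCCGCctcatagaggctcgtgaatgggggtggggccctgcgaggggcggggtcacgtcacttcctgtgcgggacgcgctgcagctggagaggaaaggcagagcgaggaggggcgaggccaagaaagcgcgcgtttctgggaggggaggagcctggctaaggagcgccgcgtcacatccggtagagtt
SRSF5 promoter (chr14:69766892-69767141, plus strand): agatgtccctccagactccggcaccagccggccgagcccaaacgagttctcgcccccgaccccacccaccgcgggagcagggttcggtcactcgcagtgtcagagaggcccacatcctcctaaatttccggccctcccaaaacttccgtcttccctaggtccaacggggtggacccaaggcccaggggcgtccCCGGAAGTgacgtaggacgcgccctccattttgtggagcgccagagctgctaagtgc

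The SRSF3 window held an inverted pair of NF-Y motifs and a TATA box, the TRA2B window 1 E2F motif, the SRSF5 window 1 ETS motif, and the SRSF7 window none of these letters. No matches overlapped one another in these windows. RefSeq promoters were found for 40 of the 43 genes. An E2F motif stood in 2 of the 40 (5%, SRSF10 and TRA2B), against 3.10% of the promoters of 10050 genes tested and 1.96% of all 27305 promoters in the table. The NF-Y motif stood in 42.5% of the 40, against 34.8% and 33.0%, the ETS motif in 7.5%, against 7.16% and 3.64%, and the TATA box in 10%, against 5.57% and 11.1%. A match of letters is a description of the window and says nothing of binding.

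Of the 18 hnRNP genes tested, 13 rose (72.2%) and 1 fell (5.56%) with the block, against 19.4% of all genes in each direction. Their median log2 fold change without the block was 0.44. HNRNPD, also known as AUF1 and a regulator of the decay of AU-rich mRNAs, had 167 and 244 CPM in the core against 283 and 372 CPM in the invasion zone, without overlap. It had the highest log2 fold change of the group, 0.69 ± 0.08 with the block (edgeR adjusted p = 0.000258, 0.183 without). HNRNPA2B1, the gene with the highest mean level per transcript length in both zones, had 504 and 810.3 CPM in the core against 879 and 1137 CPM in the invasion zone. Its core libraries lay far apart, and its log2 fold change was 0.65 ± 0.09 (edgeR adjusted p = 0.000656, 0.238 without the block).

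HNRNPA1, a general repressor of exon inclusion, had 67.8 and 67.9 CPM in the core against 106 and 86.4 CPM in the invasion zone, a rise of 0.51 ± 0.10 on the log2 scale with the block (edgeR adjusted p = 0.00421). Its level, and so its place in the order of levels, is uncertain because of 75 counted pseudogenes of HNRNPA1. Together they had 12.6% and 6.45% as many counts as the gene itself in the core and 12.3% and 7.01% in the invasion zone. Only uniquely mapped reads were counted, so reads that match gene and pseudogene alike are in neither. These shares do not measure that loss, which may leave the level of HNRNPA1 too low. HNRNPL, a binder of CA-rich RNA, had 56.6 and 54.0 CPM in the core against 91.5 and 73.1 CPM in the invasion zone. It rose by 0.57 ± 0.10 with the block (edgeR adjusted p = 0.00219, 0.150 without). Unlike most of the group, both genes were higher in replicate 1 than in replicate 2 of the invasion zone.

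HNRNPR, a binder of nascent transcripts that is also known in axonal mRNA transport, had 223 and 245 CPM in the core against 312 and 356 CPM in the invasion zone, a rise of 0.51 ± 0.07. HNRNPM had 281 and 329.7 CPM in the core against 386 and 449 CPM in the invasion zone, a rise of 0.45 ± 0.07. Both had zones that did not overlap, with an edgeR adjusted p of 0.000793 and 0.00127 with the block and 0.151 and 0.182 without. The smallest rises with the block were those of HNRNPU (0.40 ± 0.07), HNRNPK (0.25 ± 0.07), HNRNPC (0.25 ± 0.08) and HNRNPF (0.22 ± 0.07). In this order their edgeR adjusted p was 0.00216, 0.0232, 0.0385 and 0.0353 with the block and 0.384, 0.505, 0.501 and 0.419 without. In the fit without the block the value of HNRNPC turned to -0.01 when invasion zone replicate 2 was left out. HNRNPA0, HNRNPA1L2, HNRNPUL1 and HNRNPUL2 did not pass in either fit. HNRNPUL1 had 341 and 246 CPM in the core against 374 and 244 CPM in the invasion zone, where the replicates differed more than the zones, and its sign turned when core replicate 2 (-0.14) or invasion zone replicate 1 (-0.27) was left out.

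The HNRNPH genes, whose products bind runs of guanine and share much of their sequence, split. HNRNPH1 (chr5:179614178-179634784) had 96.2 and 122 CPM in the core against 146 and 166 CPM in the invasion zone. HNRNPH3 had 78.1 and 103 CPM in the core against 125 and 161 CPM in the invasion zone. HNRNPH2 (chrX:101408222-101414133) had 102 and 88.4 CPM in the core against 78.3 and 65.9 CPM in the invasion zone. For each gene the zones did not overlap, with HNRNPH1 and HNRNPH3 higher and HNRNPH2 lower in the invasion zone. With the block the log2 fold changes were 0.52 ± 0.08, 0.66 ± 0.08 and -0.40 ± 0.09 (edgeR adjusted p = 0.00131, 0.000345 and 0.00611, against 0.169, 0.157 and 0.213 without). Per transcript length, the ratio of HNRNPH1 to HNRNPH2 was 0.967 and 1.42 in the core and 1.91 and 2.58 in the invasion zone, a 1.98-fold and a 1.82-fold shift within replicates 1 and 2. The ratio of HNRNPH3 to HNRNPH2 shifted 2.08-fold and 2.11-fold. Both ratios set a gene that rose over one that fell, so their shifts restate the values above and add no support.

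**Figure D2:**
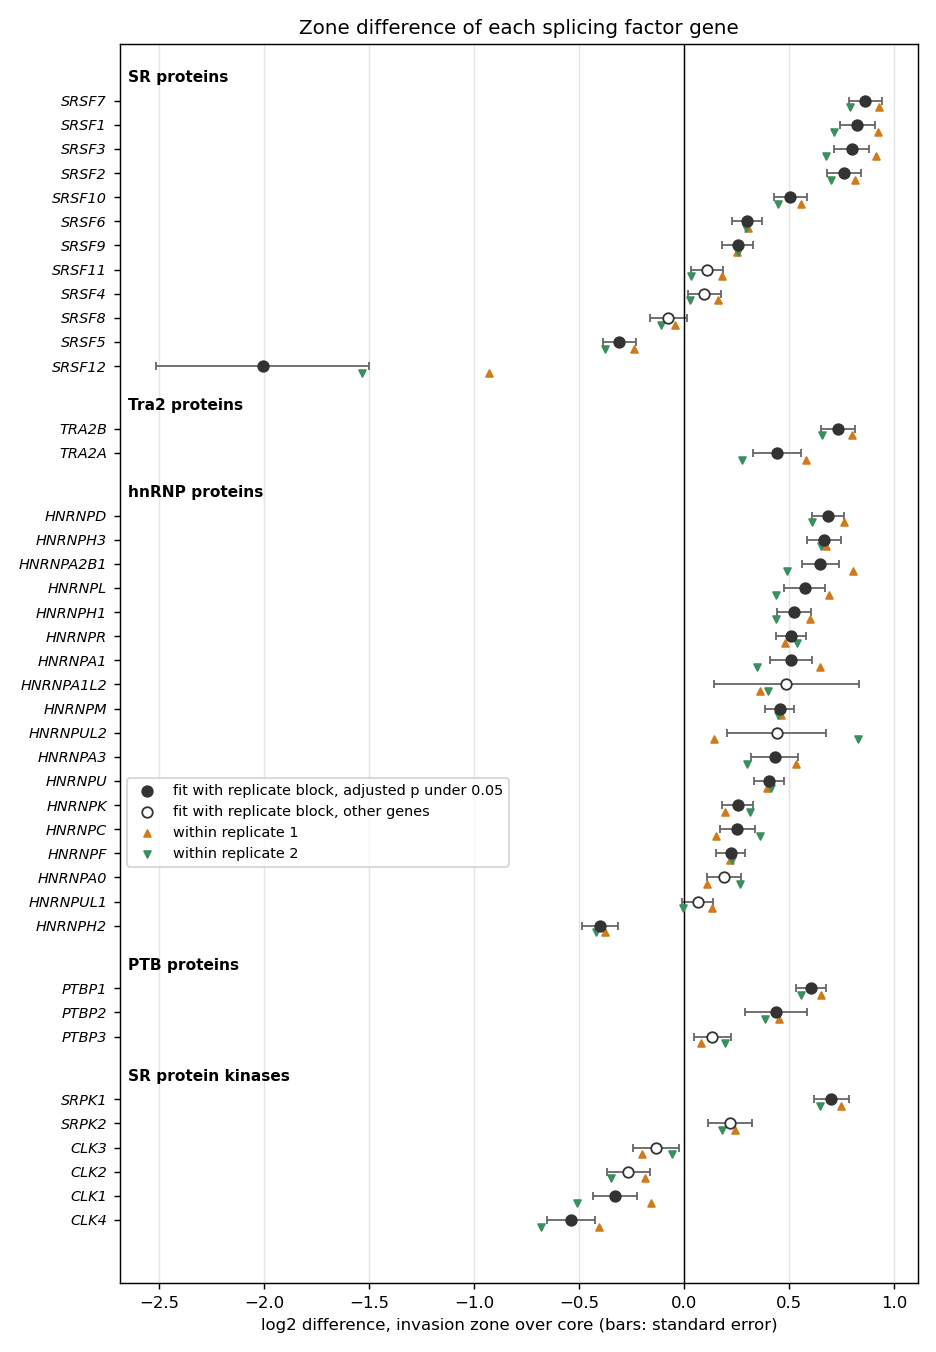
Log2 difference between invasion zone and core for the 41 splicing factor genes tested, with black points and bars for the estimate and standard error of the edgeR fit with the replicate block (filled where adjusted p was under 0.05) and triangles for the difference within each replicate, computed with a pseudocount of 0.5 CPM. Filled points lie to the right of 0 for 25 genes and to the left for 5, and SRSF12, which reached the filter through the core only, is the one point beyond 1 on either side.

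PTBP1, the widely expressed PTB protein and a repressor of neuronal exons (chr19:797075-812327), had 313 and 307 CPM in the core against 490.4 and 452 CPM in the invasion zone, with close replicates and no overlap. It rose by 0.60 ± 0.07 on the log2 scale with the block (edgeR adjusted p = 0.000352, 0.131 without, 4.61e-07 to 0.363 over 16 alternatives). PTBP2, its paralog of neurons and testis, had 11.4 and 12.01 CPM in the core against 15.8 and 15.8 CPM in the invasion zone, a rise of 0.44 ± 0.15 (edgeR adjusted p = 0.0465, 0.222 without the block, and 0.194 in DESeq2 with the block). PTBP3 had 80.1 and 85.6 CPM in the core against 84.5 and 97.9 CPM in the invasion zone, with overlapping zones and a log2 fold change of 0.13 ± 0.09 that did not pass. Per transcript length, PTBP1 made up 87.0% and 86.1% of the PTB level in the core and 90.3% and 88.5% in the invasion zone.

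Of the 6 kinase genes, 1 rose and 2 fell with the block, counts near the 19.4% of all genes called in each direction. Their median log2 fold change without the block was -0.20. SRPK1 (chr6:35832966-35921342) had 72.9 and 100.2 CPM in the core against 123 and 157 CPM in the invasion zone, without overlap. With the block it rose by 0.70 ± 0.08 on the log2 scale, or 1.62-fold (edgeR adjusted p = 0.000307, 0.158 without). SRPK2 had 33.8 and 29.2 CPM in the core against 40.004 and 33.1 CPM in the invasion zone, where the zones overlapped, and its log2 fold change of 0.22 ± 0.10 did not pass.

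The log2 fold change was negative for all 4 CLK genes, and it was so within each replicate, as for 40.9% of all genes tested. For 3 of them the zones did not overlap and the invasion zone was the lower one, as for 30.3% of all genes tested. With 4 genes these counts are a description and not a result for the family. CLK4 (chr5:178602664-178630615) had 42.0 and 44.8 CPM in the core against 31.6 and 27.8 CPM in the invasion zone. CLK1, with the highest mean level per length of the kinases in the core, had 82.8 and 87.4 CPM in the core against 74.0 and 61.1 CPM in the invasion zone. With the block CLK4 fell by 0.54 ± 0.11 and CLK1 fell by 0.33 ± 0.11 on the log2 scale (edgeR adjusted p = 0.00559 and 0.0367, against 0.147 and 0.262 without). In DESeq2 with the block CLK4 passed (adjusted p = 0.0149) and CLK1 did not (adjusted p = 0.0933). CLK2 had 44.2 and 48.1 CPM in the core against 38.8 and 37.6 CPM in the invasion zone, without overlap, but its log2 fold change of -0.27 ± 0.10 did not pass (edgeR adjusted p = 0.0701 with the block). CLK3 had 29.3 and 39.1 CPM in the core against 25.4 and 37.5 CPM in the invasion zone, with overlapping zones, and its sign turned when core replicate 2 (0.11) or invasion zone replicate 1 (0.14) was left out.

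Ratios between genes of one library do not depend on how library sizes are scaled. Per transcript length, the ratio of SRPK1 to CLK1 was 0.374 and 0.487 in the core and 0.703 and 1.09 in the invasion zone, and that of SRPK1 to CLK4 was 0.999 and 1.29 in the core and 2.23 and 3.26 in the invasion zone. The ratio of SRSF3 to SRSF5 was 0.322 and 0.430 in the core and 0.717 and 0.893 in the invasion zone, and that of SRSF7 to SRSF5 was 0.299 and 0.416 in the core and 0.676 and 0.935 in the invasion zone. Each of these 4 ratios was higher in both invasion zone libraries than in both core libraries, by 1.88-fold to 2.53-fold within replicates. Each sets a gene that rose with the block over one that fell. The shifts therefore follow from the values above and add no support. By contrast, SRSF3 and SRSF7 kept a ratio near 1 in all libraries (1.07 and 1.03 in the core, 1.06 and 0.956 in the invasion zone). The ratio of SRSF1 to SRSF2 differed between replicates more than between zones, at 0.370 and 0.491 in the core and 0.399 and 0.495 in the invasion zone. With 2 libraries against 2, an exact permutation test of a single ratio cannot go below p = 0.333, so none was run.

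**Figure D3:**
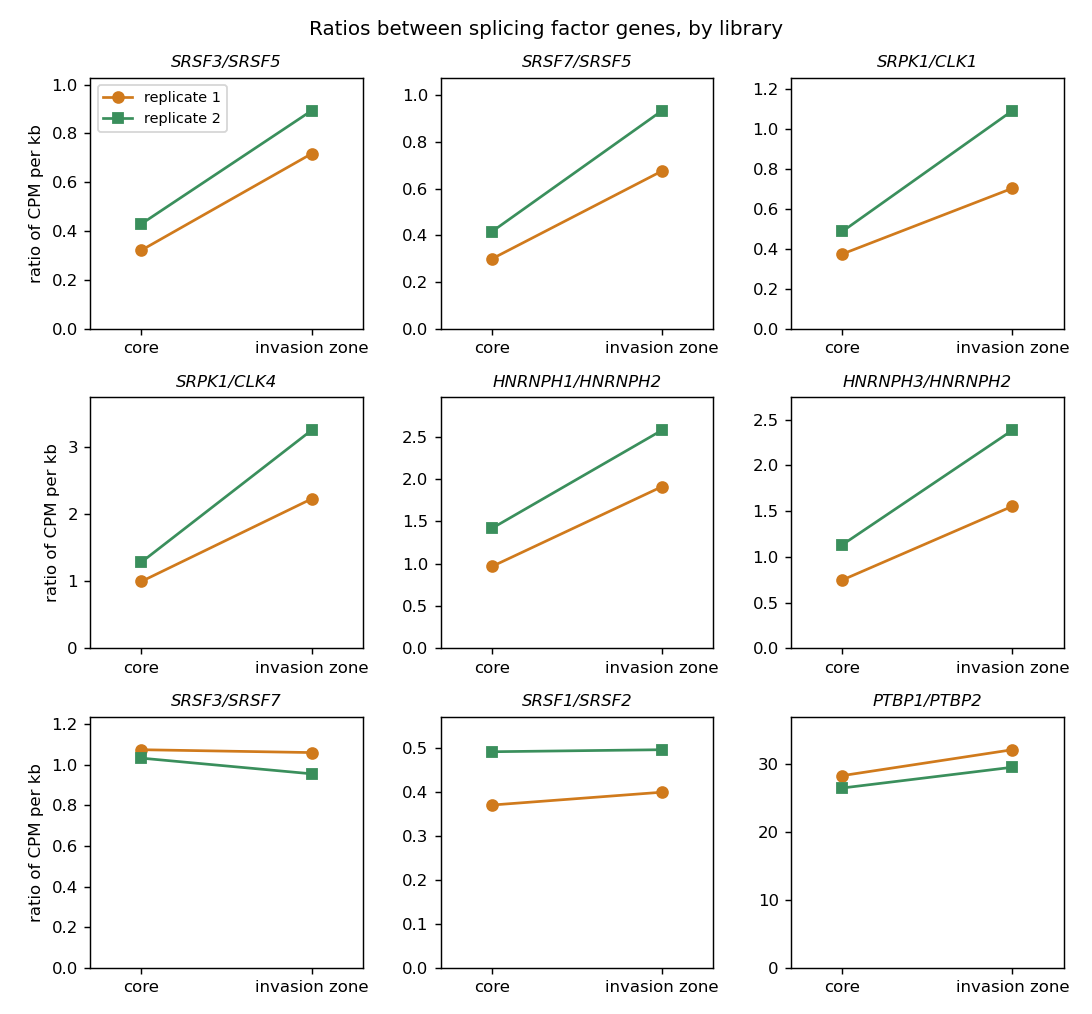
Ratio of CPM per kb between pairs of splicing factor genes in the core and the invasion zone, with 1 line per replicate and each axis starting at 0. The ratios to SRSF5, CLK1, CLK4 and HNRNPH2 are higher in the invasion zone in both replicates, while SRSF3 to SRSF7 stays between 0.956 and 1.07. These higher ratios set genes that rose with the block over genes that fell, so they restate those differences.

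These differences changed the order of levels only in part. Per kilobase of the canonical transcript, HNRNPA2B1, HNRNPF and HNRNPK had the 3 highest means in both zones, 181, 167 and 161 CPM per kb in the core and 278, 194 and 193 CPM per kb in the invasion zone. Their replicate SDs (13.5 to 59.7 CPM per kb, n = 2) were of the size of the gaps, and SRSF5 was above all 3 in core replicate 1. The order of these 4 genes is not resolved in the core, nor is that of HNRNPF and HNRNPK in the invasion zone. By its mean, SRSF5 went from rank 4 of 43 in the core (156 ± 2.25 CPM per kb, SD, n = 2) to rank 7 in the invasion zone (126 ± 10.16 CPM per kb). It was the leading SR gene of the core, with 25.0% and 20.9% of the summed SR level per length, and had 16.6% and 13.3% in the invasion zone. SRSF9 took 19.2% and 20.6% in the core and 18.0% and 20.3% in the invasion zone and was the leading SR gene there. SRSF3 went from 8.04% and 8.996% to 11.9% and 11.9%, and SRSF7 from 7.48% and 8.71% to 11.3% and 12.5%. CLK1 went from rank 18 to rank 24 and HNRNPH2 from rank 20 to rank 26, whereas SRPK1 went from rank 27 to rank 25.

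Gene models that share exonic bases limit some of these levels, since the cDNA kit named in the labels does not mark strand and the counting setting is not given. Of the exonic bases of HNRNPA3, 54.8% overlap another gene (mostly NFE2L2, on the opposite strand), and the shares are 46.7% for SRSF9 (mostly GATC), 44.3% for HNRNPUL2 (a readthrough gene with BSCL2), 40.3% for SRSF1, 31.0% for SRSF2 (mostly MFSD11) and 28.1% for SRPK1 (LHFPL5). HNRNPA1L2 lies wholly within another gene model. Reads on shared bases cannot be assigned to 1 gene, so these levels per length are uncertain.

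Other genes of RNA splicing and decay were counted from lists chosen beside these genes. Of 50 core spliceosome genes, 30 rose and 1 fell with the block, with a median log2 fold change of 0.34. SNRPE, an Sm ring protein of the snRNPs, had the highest difference of the list, with 14.1 and 4.64 CPM in the core against 28.0 and 10.5 CPM in the invasion zone. Its log2 fold change of 1.03 without the block moved to 0.14 when invasion zone replicate 1, 0.47 when core replicate 2, 1.55 when invasion zone replicate 2 and 2.07 when core replicate 1 was left out. SLU7, a factor of the second splicing step, was the one that fell, by 0.31 ± 0.09 with the block (edgeR adjusted p = 0.0195, 0.318 without). Of 46 other splicing regulators, 40 were tested, 19 rose and 1 fell, with a median of 0.24. HNRNPAB was at the top with 93.1 and 164 CPM in the core against 195 and 302 CPM in the invasion zone, and MBNL2 at the bottom, with a fall of 0.40 ± 0.10 (edgeR adjusted p = 0.0138 with the block). Of 15 nonsense-mediated decay genes, whose pathway degrades the poison exon isoforms of SR genes, 8 rose, with a median of 0.32, from SMG6 at -0.21 to MAGOHB at 0.72. The medians of these lists and the values of SMG6 and MAGOHB are from the fit without the block. All 3 lists are read against the 19.4% of all genes called in each direction with the block.

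**Figure D4:**
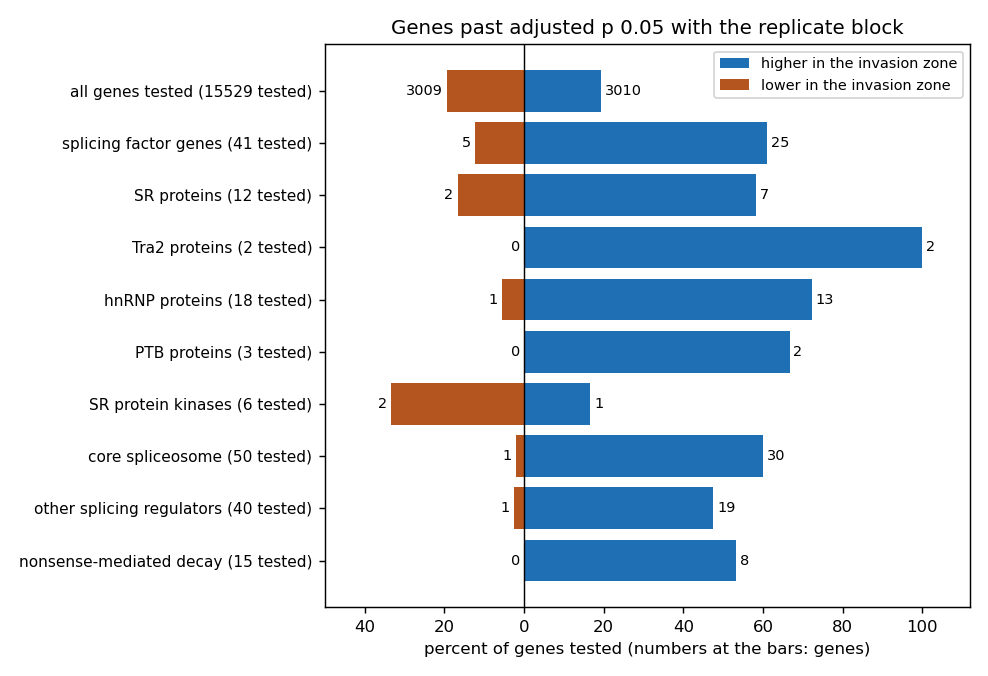
Percent of genes tested that passed an adjusted p of 0.05 in the edgeR fit with the replicate block, to the right if higher and to the left if lower in the invasion zone, for all genes tested, the splicing factor genes, their roles and 3 lists of related genes, with the number of genes at each bar. All genes tested split evenly (19.4% each way), whereas 61.0% of the splicing factor genes were higher and 12.2% lower, and of the 6 kinases 1 was higher and 2 were lower. The lower genes include SRSF12, which reached the filter through the core only.

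Other measures moved with the zones as well. The 10 S phase genes counted beside the splicing genes (such as the MCM helicase genes, PCNA and TYMS) summed to 724 and 1035 CPM in the core against 1600 and 1855 CPM in the invasion zone, and 10 of 10 rose with the block. The hypoxia genes (such as CA9, NDRG1 and LDHA) summed to 5348 and 4693 CPM in the core against 2242 and 1779 CPM in the invasion zone, and 9 of the 9 tested fell. LDHA made up most of this sum, with 3858 and 3324 CPM in the core against 1671 and 1358 CPM in the invasion zone. Of all genes tested, 19.4% were called in each direction with the block. The 41 splicing factor genes also had a lower median GC content of the transcript than all genes tested (41.6% against 48.1%). With a correction for GC content and length in the fit with the block, 20 rose (21.2% of all genes were called higher) and 5 fell (19.2% lower), and HNRNPC, HNRNPF, HNRNPK, PTBP2 and TRA2A were no longer called. The part of proliferation, hypoxia and cell mixture in the splicing factor differences was not tested.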

How the data were processed

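The deposited values are raw counts of reads per gene. The authors removed ribosomal reads with Bowtie, filtered reads by quality, aligned them to hg38 with STAR, counted uniquely mapped reads with HTSeq and compared the zones in DESeq2. Tool versions, annotation release and strandedness were not given in the sources used here. Of 56306 rows, 2 repeated rows without counts were left out.

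Counts were analysed in R 4.3.3 with edgeR 4.0.16 (TMM scaling, filterByExpr with 10 counts at the median library size and 15 in total, quasi-likelihood test, Benjamini-Hochberg adjustment over 15529 genes, adjusted p under 0.05), with limma 3.58.1 and DESeq2 1.42.0 as alternatives. SE is the log2 fold change divided by the root of F. With 4 libraries the fit with the block leaves little information on the spread of each gene. Its SE and p therefore rest largely on spread estimated over all genes, not on a single gene's own replicates. Python 3.11.15 and matplotlib 3.10.9 were used for figures. The main test had no replicate term, since the study's methods describe a pairwise DESeq2 comparison and name none. The replicate number was read as pairing libraries because the protocol takes a core and then its corresponding invasion zone, although the sources do not state that it marks a shared spheroid. Deviations of the replicate 1 libraries from their zone means correlated at 0.58 across genes. With 2 libraries per zone, replicate 2 gives the same value by construction and adds nothing to it. Libraries of a zone were not duplicates (chi-square per degree of freedom of 33.8 in the core and 31.9 in the invasion zone).

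The members, the lists and the rule for named genes were chosen with earlier results of these data known. Values per library were given for the 20 members with the smallest p, the 2 highest and 2 lowest fold changes and the highest level per length of each role, and all TRA2, PTBP, CLK and SRPK genes. Each list gave its extremes. The gene pairs of the ratios were not set by this rule. Values of SRSF6 were added after their values were seen. Of the identifiers, 98.1% matched GENCODE release 44 (GRCh38), the source of lengths, positions and overlaps, and promoters came from RefSeq. Alternatives were other scalings, GC and length correction, filters, tests, call rules, thinning to the smallest library, the block and each library left out.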

Additional observations from a re-analysis of the deposited data

How the results depend on the processing

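Without a replicate term, 0 of the splicing factor genes tested (40 with a minimum of 10 counts in every library, otherwise 41) were called in either direction under RLE or upper-quartile scaling, GC and length correction, a minimum of 10 counts in every library, thinning, limma voom and the 2-fold rule, in each of which 0 of all genes tested were called too. Calls higher and lower among the splicing factor genes, followed by those among all genes tested, were 15 and 2 (1841 and 1928) at an unadjusted p, 5 and 0 (811 and 876) in DESeq2, and 11 and 1 (1148 and 1425) without a filter on low counts. With the replicate block they were 25 and 5 (3010 and 3009) in edgeR, 25 and 5 (3234 and 3228) in limma voom, 19 and 3 (2185 and 1939) in DESeq2, and 20 and 5 (3257 and 2953) with GC and length correction. Leaving out each library in turn gave 0 to 8 splicing factor genes higher and 0 lower, and 13 to 898 genes higher and 125 to 1331 lower in all. In these fits the lone library of a zone is assumed to vary like the other zone.

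The median log2 fold change of the splicing factor genes, 0.40, stayed positive in every fit. It was 0.42 with RLE scaling, 0.38 with upper-quartile scaling, 0.34 with GC and length correction (0.34 also with the block), 0.42 in DESeq2 (0.44 with the block), 0.44 in limma voom, 0.43 with the block, 0.39 with 10 counts in every library, 0.39 after thinning, and 0.33 to 0.45 with a library left out. Among 559 values of 35 named genes, the sign turned in 4, for CLK3 and HNRNPUL1. CLK3 ran from -0.43 to 0.14 with a library left out, with 0.11 when core replicate 2 and 0.14 when invasion zone replicate 1 was left out, and HNRNPUL1 ran from -0.27 to 0.35, with -0.14 and -0.27 in the same fits, and the cause was not tested. Of the members outside the rule for named genes, HNRNPA0, HNRNPC, HNRNPUL2 and SRSF4 also changed sign with a library left out, with lowest values of -0.10, -0.01, -0.09 and -0.07. Depth limits SRSF12, HNRNPA1L2 and HNRNPUL2, the 3 tested genes with fewer than 1000 counts in all libraries together. With 2 libraries per zone, the count of calls rests on the replicate term, and the data do not say whether the number marks a shared spheroid.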
